A study of Mus musculus with 6 samples.

Results

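Acute phase proteins are secreted or alarm proteins whose genes respond to injury and infection, and the set described here holds 8 genes of that kind: Lcn2, Lrg1, Saa1, Saa2, Saa3, Hp, C3 and Il33. The genes were chosen by name, after the difference between transgenic and control arrays was known, and each was read from the array row annotated with that single symbol. A row was found for 7 of the 8, among 19938 genes in all, and C3 was not analysed here. The rule took the row with the highest mean where a gene had several, but each of the 7 genes had 1 row. Because the same comparison of 3 transgenic against 3 control arrays had been seen when the genes were chosen, their values are given as a description with no test.

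Each array held RNA of the total epithelial cells of the jejunum of a mouse, and the series text counts 1 animal per array. The 3 control animals carried R26-M2rtTA, a transcriptional activator that works only in the presence of doxycycline and is expressed from the Rosa26 locus, which is active in most tissues, so the activator was not restricted to the gut epithelium. The 3 transgenic animals carried the same activator and a TRE-driven Musashi transgene, which the series text gives as TRE-Msi1 and the genotype label as TRE-MSI2. Both groups had doxycycline in the drinking water for 24 h, and no array came from an animal without it. The labels give neither strain nor age. The Msi1 signal was 6.86 to 7.03 on the control arrays and 12.51 to 12.68 on the transgenic arrays, while Msi2 was 8.59 to 8.71 on the controls and 8.01 to 8.57 on the transgenic arrays. Values are log2 signals, so 1 unit is a doubling, and array medians ran from 6.27 to 6.34. Transgenic replicate 1 stood apart, with a correlation across genes of 0.922 to 0.951 with the other arrays, and results that rest on it are given with and without it. Of all genes 11.9% differed between the groups at a limma adjusted p under 0.05 (6.04% higher and 5.84% lower with the transgene). Without transgenic replicate 1, 28.6% did so (14.0% higher and 14.5% lower). Counts given below for lists without that array are to be read against these larger shares.

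In the liver the acute phase response is driven mainly by IL-6, which signals through the receptor chain gp130 and the factor STAT3, and by IL-1 and tumour necrosis factor, which signal through NF-kB. Gut epithelial cells make some of the same proteins themselves, in response to microbes and to IL-22 and IL-17. Lipocalin 2 and the serum amyloid A proteins belong to this local defence, and IL-33 is an alarm protein held in the nucleus until a cell is damaged.

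Among the 7 measured genes, 6 had every transgenic array above every control array, and Hp did not. For comparison, 16.0% of all genes tested had every transgenic array above every control. By the limma criterion 4 of the 7, namely Lcn2, Lrg1, Saa3 and Il33, were called higher and 0 lower, against 6.04% called higher among all genes, and 6 were called higher without transgenic replicate 1, against 14.0%. Without control replicate 1 the count was 3, since Il33 was then not called. These counts come from the comparison on which the genes were chosen and carry no independent weight.

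**Figure D1:**
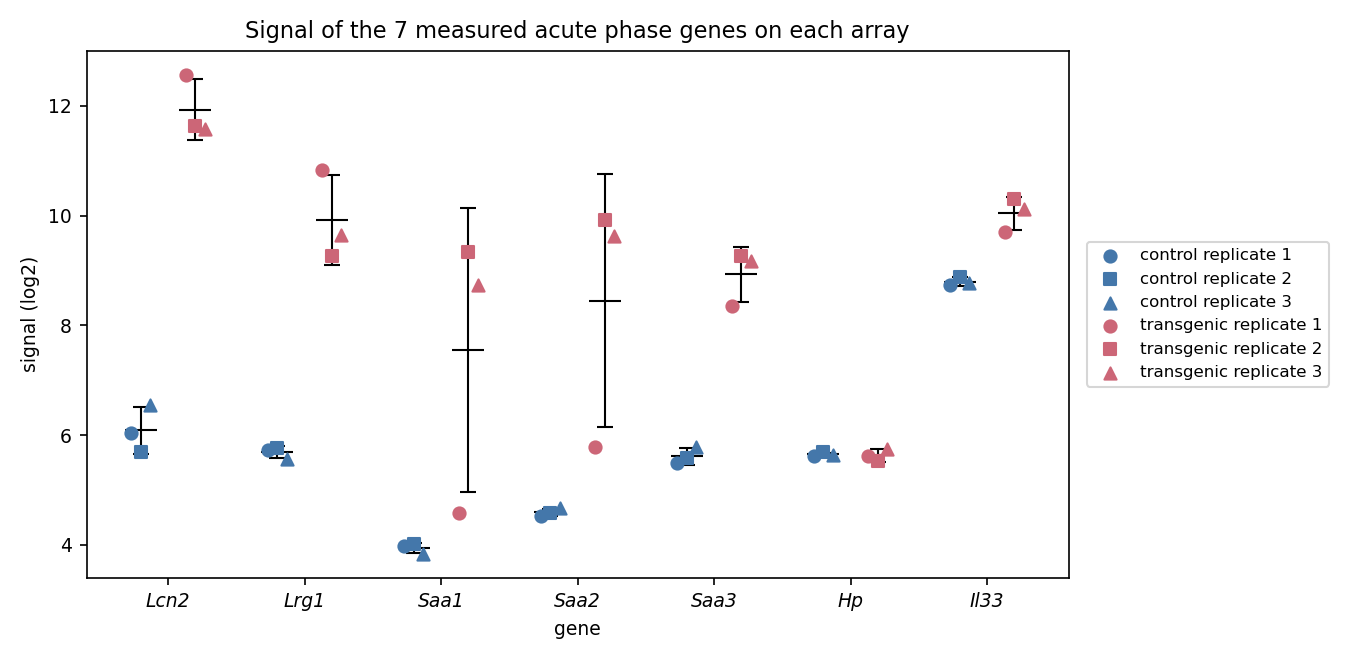
Signal (log2) of each of the 7 measured genes on the 3 control arrays (blue) and the 3 transgenic arrays (red), with symbols for the replicate number and a bar for the mean ± SD of 3 arrays. The groups overlap for Hp alone, and on Saa1 and Saa2 transgenic replicate 1 lies close to the controls.

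Lcn2 encodes lipocalin 2, which binds the iron carriers of bacteria and so withholds iron from them. Its signal was 6.04, 5.69 and 6.54 on the control arrays and 12.57, 11.64 and 11.57 on transgenic replicates 1, 2 and 3. All 3 transgenic arrays were far above the controls, with a gap of 5.03 between the lowest transgenic and the highest control array, and replicate 1 was the highest. The group means were 6.09 ± 0.43 and 11.93 ± 0.56 (SD, n = 3 each), a difference of 5.84 (SE 0.334) or 57.1-fold, the largest positive difference among the 19938 genes and above that of Msi1 at 5.66.

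Lrg1 encodes a secreted leucine-rich glycoprotein of the acute phase that is known to modify TGF-beta signalling in vessels. The control arrays had 5.74, 5.77 and 5.57, and the transgenic arrays had 10.83, 9.26 and 9.64. As with Lcn2, no array of the groups overlapped and replicate 1 was the highest, here by more than 1 unit. The means were 5.69 ± 0.11 and 9.91 ± 0.82 (SD, n = 3 each), a difference of 4.22 (SE 0.391) or 18.7-fold, and 3.76 without transgenic replicate 1.

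The serum amyloid A genes encode small lipid-binding proteins that travel on high-density lipoprotein and carry retinol in the infected gut, and Saa1 and Saa2 are close copies of each other. Saa1 had 3.97, 4.02 and 3.84 on the controls and 4.58, 9.34 and 8.74 on transgenic replicates 1, 2 and 3. Saa2 had 4.53, 4.57 and 4.67 on the controls and 5.79, 9.92 and 9.63 on the transgenic arrays. Both genes were thus high on transgenic replicates 2 and 3 and close to the controls on replicate 1, which lay 0.64 above the control mean for Saa1 and 1.20 above it for Saa2. With all arrays the differences were 3.61 (SE 1.21) for Saa1 and 3.86 (SE 1.07) for Saa2. Without transgenic replicate 1 they were 5.10 and 5.18, or 34.3-fold and 36.3-fold, as the means over replicates 2 and 3 alone. Such a gap between replicate 1 and the other transgenic arrays was rare: 306 of all genes (1.53%) lay at least 2 units lower on replicate 1 than on the mean of replicates 2 and 3, and Saa1, at -4.46, had the seventh largest shortfall among them.

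Saa3, the third gene of the family, is made by many cell types outside the liver. It had 5.49, 5.57 and 5.78 on the controls and 8.35, 9.27 and 9.18 on the transgenic arrays, so replicate 1 was the lowest of the transgenic arrays but 2.74 above the control mean. The difference was 3.32 (SE 0.254), or 9.98-fold, and 3.61 without replicate 1. The 3 Saa genes therefore did not share 1 profile: replicate 1 reached 6.68-fold over the control mean for Saa3, against 1.56-fold for Saa1 and 2.30-fold for Saa2.

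The promoter windows of the 3 Saa genes and of Lcn2 are shown because Saa1 and Saa2 had nearly the same profile over the arrays while Saa3 and Lcn2 had others. RefSeq windows (assembly GRCm38.p6) were found for 6 of the 7 measured genes, and the 250 bases before the start site are printed 5′ to 3′ on the strand of the gene. The start sites used for Saa1 and Saa3 lay inside the annotated spans of those genes (46740497 to 46743181 and 46711998 to 46719615). The Saa3 window was thus wholly within its gene span, and the Saa1 window partly so. Capitals mark matches to the C/EBP letters TTNNGNAA on either strand.
Saa1, chr7:46742981-46743230, minus strand: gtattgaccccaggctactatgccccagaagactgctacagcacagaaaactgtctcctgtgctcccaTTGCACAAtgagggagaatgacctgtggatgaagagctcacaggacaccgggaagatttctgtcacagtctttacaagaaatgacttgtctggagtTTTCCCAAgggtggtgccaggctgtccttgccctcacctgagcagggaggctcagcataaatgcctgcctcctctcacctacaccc
Saa2, chr7:46751583-46751832, plus strand: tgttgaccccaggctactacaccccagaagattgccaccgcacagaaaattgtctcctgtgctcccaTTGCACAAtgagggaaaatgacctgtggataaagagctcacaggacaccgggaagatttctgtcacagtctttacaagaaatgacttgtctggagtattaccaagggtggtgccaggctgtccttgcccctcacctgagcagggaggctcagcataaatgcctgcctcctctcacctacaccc
Saa3, chr7:46715677-46715926, minus strand: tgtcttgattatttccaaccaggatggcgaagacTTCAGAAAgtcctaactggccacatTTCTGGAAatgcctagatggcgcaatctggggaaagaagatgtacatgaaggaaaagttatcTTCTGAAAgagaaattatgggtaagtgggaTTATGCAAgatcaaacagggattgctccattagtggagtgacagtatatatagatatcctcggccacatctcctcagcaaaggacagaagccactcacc
Lcn2, chr2:32387740-32387989, minus strand: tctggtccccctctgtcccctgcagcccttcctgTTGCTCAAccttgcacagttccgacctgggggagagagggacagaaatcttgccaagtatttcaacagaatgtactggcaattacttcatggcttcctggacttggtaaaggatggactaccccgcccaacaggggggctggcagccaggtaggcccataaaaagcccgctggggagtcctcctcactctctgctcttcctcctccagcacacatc
The Saa1 and Saa2 windows lay 8352 bases apart, on opposite strands, and were 94.8% identical in a global alignment. Saa3 was 52.2% identical with Saa1 and 52.4% with Saa2, near the 53.5% that the same alignment gave for Saa1 and the unrelated Lcn2 window. The C/EBP letters occurred at 2 places in the Saa1 window, 1 in Saa2, 4 in Saa3 and 1 in Lcn2, and at least once in 36.8% of all 32851 promoter windows of that length. The match TTGCACAA was shared by Saa1 (182 to 175 bases before the start) and Saa2 (183 to 176), and a second Saa1 match, TTTCCCAA, had no counterpart among the Saa2 matches. Neither the NF-kB consensus (7.25% of all windows) nor the STAT letters TTCNNNGAA (7.02%) occurred in these 4 windows on either strand, which says only that these letters were not in them. The array's probe sequences were not used here, so how far the Saa1 and Saa2 rows each read the transcript of the other was not tested.

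**Figure D2:**
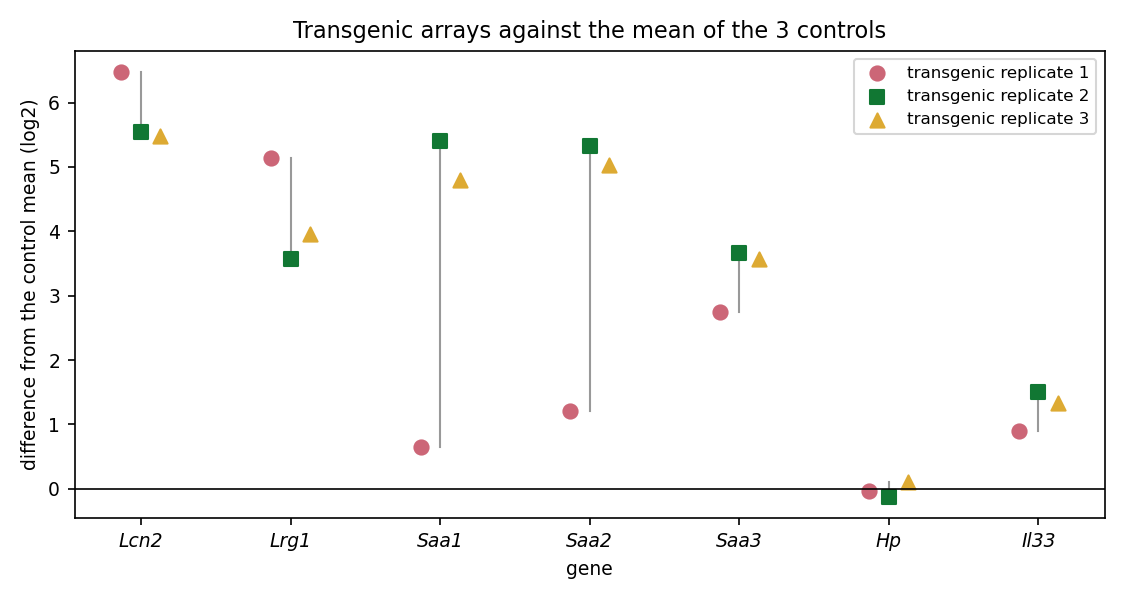
Difference of each transgenic array from the mean of the 3 controls (log2) for the 7 measured genes, with a symbol and colour for each replicate and a line for their range. Replicate 1 was the highest of the 3 for Lcn2 and Lrg1 and the lowest for Saa1, Saa2, Saa3 and Il33.

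Il33 encodes IL-33, which acts on the receptor Il1rl1 of innate lymphoid cells, mast cells and others. It had 8.73, 8.89 and 8.77 on the controls and 9.70, 10.30 and 10.12 on the transgenic arrays. The groups did not overlap, and replicate 1 was again the lowest transgenic array. The means were 8.80 ± 0.08 and 10.04 ± 0.31 (SD, n = 3 each), a difference of 1.24 (SE 0.164) or 2.37-fold, the smallest of the 6 genes that were higher. Hp encodes haptoglobin, which captures free haemoglobin and is made mainly in liver. Its signal was 5.63, 5.68 and 5.64 on the controls and 5.61, 5.53 and 5.76 on the transgenic arrays. The groups overlapped, with a difference of -0.02 (SE 0.0884).

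The position of transgenic replicate 1 ran in both directions over the set. Its difference from the mean of replicates 2 and 3 was 0.96 for Lcn2 and 1.38 for Lrg1, but -3.98 for Saa2, -0.87 for Saa3 and -0.51 for Il33, and it was -0.03 for Hp. The median of this quantity over all genes was -0.03. On the same array enterocyte markers, genes of the absorptive cells in which Saa1 and Saa2 are known to be made, had a median of -2.23 relative to the control means, against -0.10 and -0.13 on replicates 2 and 3. Lymphocyte markers had a median of -2.42 on replicate 1, and of -0.60 and -0.61 on the other transgenic arrays. Fewer cells of a type and less RNA per cell cannot be told apart in such bulk samples, and the part of these markers in the Saa values was not tested.

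Genes with array profiles most like those of Lcn2, Saa2 and Il33 were taken from 1013 named genes whose highest and lowest arrays differed by at least 2 units, by Pearson correlation over the 6 arrays. The correlation reflects mostly the gap between the groups, and it is given as a description. Closest to Lcn2 were Asns (r = 0.999), which makes asparagine, Arf2 (0.997), Tat (0.995), Impact (0.995) and Prrg4 (0.995). Closest to Saa2 were the cytochrome P450 genes Cyp4a12a (r = 0.9995) and Cyp4a12b (0.999), the IL-2 receptor chain Il2ra (0.999), Renbp (0.997) and Sh3bp5 (0.997). Cyp4a12a showed the Saa2 pattern plainly, with 4.10, 4.41 and 4.46 on the controls and 5.66, 10.38 and 9.97 on transgenic replicates 1, 2 and 3. Closest to Il33 were the factor Cebpd (r = 0.997), the clock gene Cry1 (0.995), Mx1 (0.995), Rasd1 (0.995) and Ntn5 (0.995).

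Genes of the pathways that induce acute phase proteins were examined next, beginning with the signalling genes and transcription factors inside the cell. Of 26 measured, 10 rose and 1 fell (38.5% and 3.85%, against 6.04% and 5.84% of all genes), and the median difference was 0.32 against -0.04 over all genes. All 26 were kept when the dimmest 40% of genes were left out. In that fit 10 of them rose and 1 fell, against 1202 higher and 1138 lower of 11963 genes, larger shares than over all genes. Socs3, the feedback inhibitor that STAT3 induces, had 7.75, 7.76 and 7.39 on the controls and 9.30, 9.23 and 9.32 on the transgenic arrays. It rose by 1.65 (SE 0.121, limma adjusted p = 0.0016) and, unlike the Saa genes, was as high on transgenic replicate 1 as on the others. Cebpd, a C/EBP factor known to bind acute phase promoters, had 6.14 on each control array and 7.49, 8.46 and 8.11 on the transgenic arrays, a rise of 1.88 (SE 0.238, limma adjusted p = 0.0069). Cebpb, its close relative, differed by 0.01 and did not pass (limma adjusted p = 0.977).

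Of the adaptor and NF-kB genes, Traf6, a ubiquitin ligase below the IL-1 receptor, rose by 1.36 (limma adjusted p = 0.00114), and Myd88, the adaptor above it, rose by 0.69 (0.00507). Rela, the p65 subunit of NF-kB, rose by 0.71 (0.00404), and its inhibitor Nfkbia, itself an NF-kB target, rose by 0.92 (0.00614). Nfkbiz, a nuclear co-regulator needed for Lcn2 induction in several cell types, rose by 0.60 (0.00963), and Stat3 itself rose by 0.59 (0.0243). The other members that passed, named to complete the count, were Bcl3 (0.55) and Atf3 (1.76), which rose, and the STAT3 inhibitor Pias3, which fell by 0.45. Other genes of the list were lower on every transgenic array and did not pass (limma adjusted p from 0.0868 to 0.248). These were Relb (-0.56), Nfkb2 (-0.38), Jak2 (-0.57), Tyk2 (-0.54), Cebpa (-0.28) and Foxa2 (-0.20), named after their values were seen. NF-kB and JAK genes thus did not all move in 1 direction. With each array left out in turn, Socs3, Cebpd, Traf6, Myd88, Rela and Nfkbia passed in all 6 fits. Nfkbiz and Bcl3 did not pass when control replicate 1 or 2 was omitted (limma adjusted p up to 0.063 and 0.0611), and Stat3, Atf3 and Pias3 passed in just 1 of the 6 fits, the one that omitted transgenic replicate 1 (highest values 0.104, 0.086 and 0.133). The list had 13 higher and 5 lower without transgenic replicate 1, against 14.0% and 14.5% of all genes, and 6 called without control replicate 1 or 2.

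**Figure D3:**
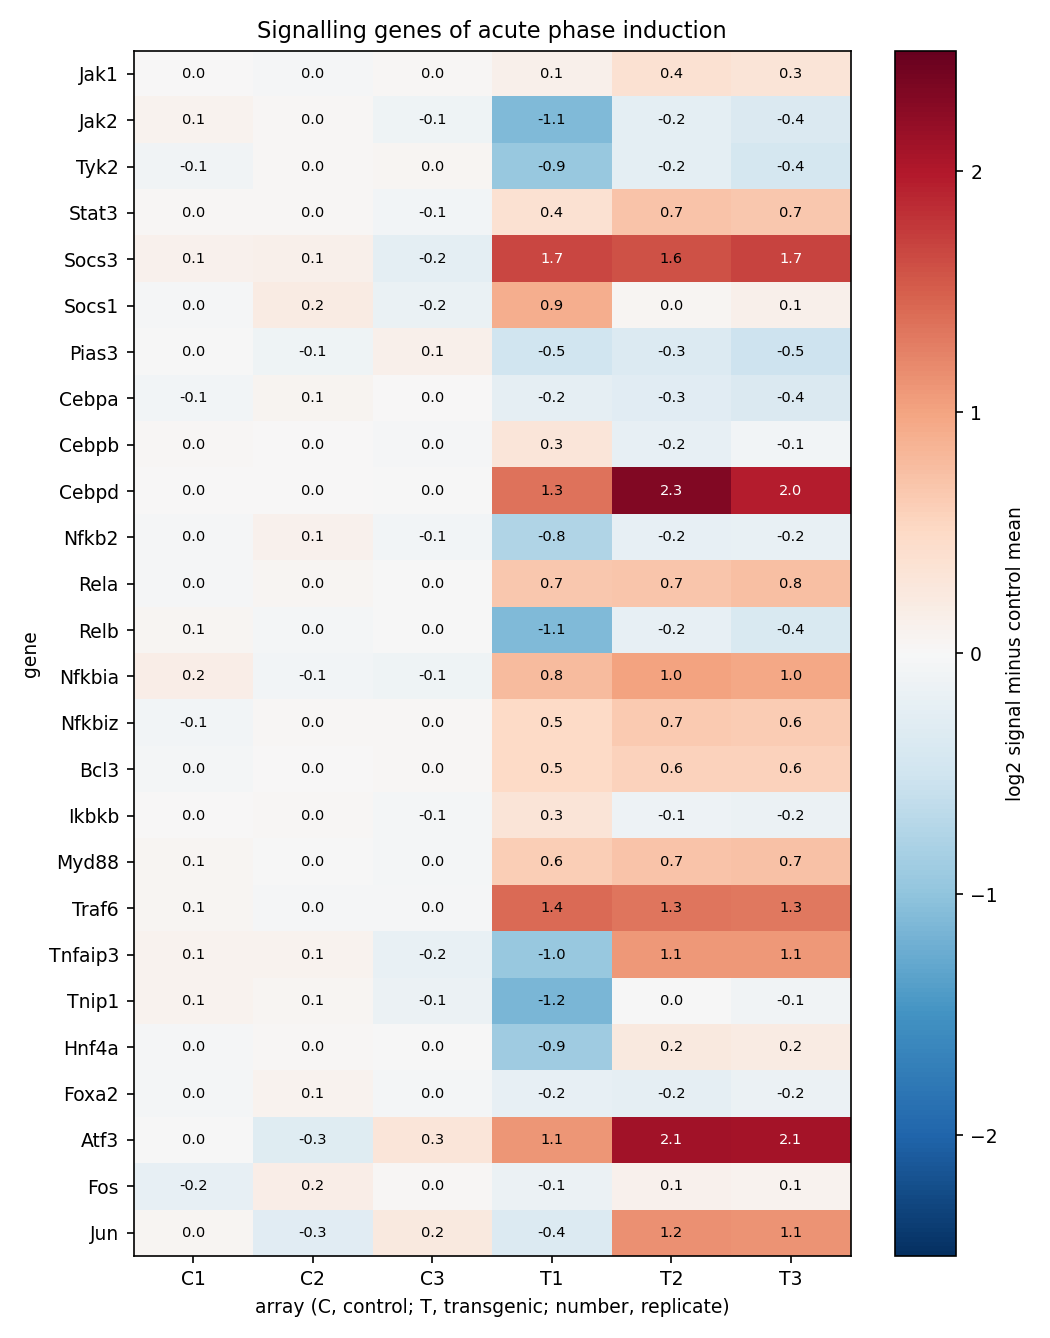
Heat map of the 26 measured signalling genes on each of the 6 arrays (C, control; T, transgenic), each cell giving the log2 signal minus the mean of the 3 controls. Socs3, Traf6, Rela and Myd88 are alike on the 3 transgenic arrays, whereas Jun is above the controls on replicates 2 and 3 and below them on replicate 1.

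Of 18 cytokines and receptors measured, 1 rose and 1 fell (5.56% each way, near the 6.04% and 5.84% of all genes), and the median difference was 0.00. Il6st, which encodes gp130, the shared receptor chain of the IL-6 family, rose from 8.62 ± 0.05 to 9.46 ± 0.07 (SD, n = 3 each; difference 0.84, SE 0.0798, limma adjusted p = 0.00323), and passed with each array left out in turn. Il17rc, a chain of the IL-17 receptor, fell by 1.50 (limma adjusted p = 0.0485), but passed only with all arrays or without transgenic replicate 1 (-1.06), and its adjusted p reached 0.168 otherwise. Il22ra1, the receptor chain for IL-22, differed by -0.02 and Osmr, the receptor chain for oncostatin M, by 0.30, and neither passed (limma adjusted p = 0.967 and 0.333). Il22, Il11ra1 and Il1r1 were not among the genes measured, so the IL-22 gene itself was not examined. The measured cytokine rows were low and close between groups. Il6 had 3.43 to 3.50 on the controls and 3.34 to 3.40 on the transgenic arrays, and Il1a 3.93 to 3.98 and 4.02 to 4.51. Il1b had 4.93 to 5.17 and 5.14 to 5.30, and Tnf 5.74 to 5.86 and 5.47 to 5.96. Without transgenic replicate 1 the list had 4 higher and 1 lower, and 1 called with any other array left out.

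Of 24 other acute phase genes measured, 4 rose and 0 fell (16.7% higher, against 6.04% of all genes), with a median difference of 0.03. Leaving out the dimmest 40% of genes, by their mean over the 6 arrays, kept 5 of the 24. In that fit 4 of these rose, against 1202 of 11963 genes. They were Mt1, Lbp, Ltf and Mt2, the last of which was not called among all genes. Steap4, called among all genes, was itself one of the dim rows left out. The median and most of the genes that did not pass thus describe dim rows. Mt1, a zinc-binding metallothionein, rose by 1.62 (SE 0.194, limma adjusted p = 0.00593), and Lbp, which carries bacterial lipopolysaccharide to its receptor, rose by 1.56 (SE 0.271, limma adjusted p = 0.0183). Ltf, the iron-binding protein lactotransferrin, rose by 1.00 (limma adjusted p = 0.021), and the metalloreductase gene Steap4 rose by 0.85 (0.0477). The genes that did not pass differed in both directions, and those named here were chosen after their values were seen. Mt2, a second metallothionein gene, had 9.59 to 11.05 on the controls and 11.74 to 11.78 on the transgenic arrays. Its difference was 1.41 (limma adjusted p = 0.0522). Crp, the C-reactive protein gene, had 4.88, 5.04 and 4.98 on the controls and 5.28, 6.21 and 5.84 on the transgenic arrays, a difference of 0.81 (limma adjusted p = 0.0805). Hamp, which encodes the iron hormone hepcidin, differed by 0.80 (limma adjusted p = 0.0797) and the fibrinogen gene Fgb by 0.25 (0.11). For Mt2, Crp, Hamp and Fgb every transgenic array was above every control, and each was called higher without transgenic replicate 1. Serpina3n, a protease inhibitor gene, differed by 0.88 (limma adjusted p = 0.445), with 7.68 on transgenic replicate 1 and overlapping groups. Smaller differences were those of Orm1 (-0.14), Apcs (0.03), the fibrinogen gene Fga (0.16) and Saa4, the constitutive member of the Saa family (0.10). Mt1 passed in all 6 fits that omitted 1 array. Lbp passed in 2 of them, those omitting control replicate 3 or transgenic replicate 1 (limma adjusted p as high as 0.0886 in the others), Steap4 in 2, those omitting transgenic replicate 1 or 3 (0.172), and Ltf in the 1 omitting transgenic replicate 1 (0.0979). Without transgenic replicate 1, 8 rose, and 1 or 2 did with any other array left out.

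Of 11 listed genes, mostly of proteins that the liver makes less of in the acute phase, 0 passed (1 higher and 1 lower at an unadjusted limma p under 0.05), with a median difference of 0.06. Albumin (Alb) had 4.87 to 5.23 on the controls and 5.04 to 5.24 on the transgenic arrays. Without transgenic replicate 1 Ttr (0.40) and Tfrc (0.37) rose and Rbp4 fell by 0.51, named after their values were seen. Tfrc encodes the transferrin receptor and not a secreted liver protein.

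C3, the central complement protein, was not analysed here, and of 22 other complement genes 3 rose and 0 fell (13.6% higher, against 6.04% of all genes), with a median difference of -0.07. Cd59a, which blocks the membrane attack complex, rose by 2.12 (SE 0.273, limma adjusted p = 0.00725), and Cd46, which helps to inactivate deposited C3b, rose by 1.75 (SE 0.289, limma adjusted p = 0.0158). Masp2, a protease of the lectin pathway, rose by 0.42 (limma adjusted p = 0.0363). Cd59a passed in all 6 fits that omitted 1 array, Cd46 in 3, failing when control replicate 1, control replicate 2 or transgenic replicate 3 was omitted (limma adjusted p as high as 0.0797), and Masp2 in the 1 omitting transgenic replicate 1 (0.153 at most in the others). Without that array 4 rose and 2 fell, and 1 or 2 rose with any other left out.

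Few receptors and partners of the acute phase proteins passed, and the others differed in both directions. Of 24 measured, 2 rose and 0 fell (8.33% higher, against 6.04% of all genes), with a median difference of -0.07. Hmox1, which breaks down haem, rose from 6.01 ± 0.12 to 7.01 ± 0.14 (SD, n = 3 each; difference 1.00, SE 0.109, limma adjusted p = 0.00468). Tgfbr2, a receptor of TGF-beta, rose by 1.88 (limma adjusted p = 0.0108), with the call lost without any 1 control (up to 0.0592). The lipocalin receptor Slc22a17 differed by -0.09, the serum amyloid receptor Scarb1 by -0.23, the haptoglobin receptor Cd163 by 0.12 and the C3a receptor C3ar1 by 0.82, and none of these 4 passed (limma adjusted p from 0.223 to 0.785). Lrp1 differed by -1.43 and Cr1l by 0.79 with no overlap of the groups, and neither passed (limma adjusted p = 0.144 and 0.101). These 2 were named after their values were seen. Il1rl1, the receptor of IL-33, and Fpr2 were not among the genes measured. Without transgenic replicate 1 the list had 6 higher and 3 lower, against 14.0% and 14.5% of all genes. Scarb1 (-0.56) and Lrp1 (-0.81) were among the lower, and C3ar1 (0.39) and Cr1l (1.04) among the higher. The list had 1 called without any 1 control, and 2 higher and 2 lower without transgenic replicate 3.

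Of the IL-1 family to which Il33 belongs, 1 of 16 other measured genes rose and 0 fell (6.25% higher, near the 6.04% of all genes), with a median difference of 0.08. That gene was Il1f9, which encodes the epithelial alarm cytokine IL-36 gamma. It had 4.43, 4.80 and 4.41 on the controls and 9.28, 6.83 and 6.77 on transgenic replicates 1, 2 and 3, a rise of 3.08 (SE 0.676, limma adjusted p = 0.0367). Its highest array was replicate 1, as for Lcn2 and Lrg1 and not as for Il33. Il1f9 kept the call only without transgenic replicate 1 (2.26), with an adjusted p up to 0.138 otherwise. Without that array 3 genes of the list rose, and 0 passed with any other array omitted.

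Other epithelial defence genes that cytokines induce had 4 of 22 higher and 0 lower (18.2% higher, against 6.04% of all genes), with a median difference of 0.27. Fut2, a fucosyltransferase induced by IL-22, rose by 4.14 (SE 0.329, limma adjusted p = 0.00195), the chemokine gene Ccl20 by 1.47 (0.00373), and the lectin gene Reg3a by 1.74 (0.00799). Tgm2, a transglutaminase, rose by 0.94 (limma adjusted p = 0.0315), with the call kept only without transgenic replicate 1 (up to 0.13). Duox2, an epithelial oxidase, had 10.81, 11.17 and 8.17 on the controls and 9.68, 9.58 and 9.55 on the transgenic arrays, so the groups overlapped; it was named after its values were seen. Ido1 (-1.86) and Pigr (-0.58) were lower on every transgenic array and did not pass (limma adjusted p = 0.192 and 0.304). Both were also named after their values were seen. Without transgenic replicate 1, 7 rose and 2 fell, against 14.0% and 14.5% of all genes. The 2 that fell were Pglyrp1 (-1.35) and Ido1 (-0.94).

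Lcn2, Lrg1 and Hp are also stored or made by neutrophils, and their markers were examined beside the members. Of 14 neutrophil markers 2 rose, Ltf (1.00) and Ly6g (4.87), and 0 fell (14.3% higher, against 6.04% of all genes). Ly6g had 4.81, 4.97 and 4.80 on the controls and 12.23, 8.50 and 8.46 on the transgenic arrays, with replicate 1 the highest, as for Lcn2 and Lrg1. Its adjusted p was 0.0312 with limma and rose to 0.121 at most when any 1 control or transgenic replicate 2 was omitted. The 12 other markers differed by -0.15 to 0.42 and did not pass, with a summed linear signal of 470.0 to 529.2 on the controls and 451.1 to 530.0 on the transgenic arrays. With Ly6g and Ltf included the sum was 553.4 to 623.7 on the controls and 951.5 to 5418 on the transgenic arrays. S100a8 and S100a9, abundant in neutrophils, had 4.51 to 4.71 and 5.33 to 5.48 on the controls and 4.54 to 4.66 and 5.18 to 5.53 on the transgenic arrays. The files hold no detection call, so whether such low signals lie above background is not known.

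Markers of the other cell types were read in the same way. Over all genes 6.04% were called higher and 5.84% lower, and 14.0% and 14.5% without transgenic replicate 1. Of 14 macrophage and dendritic cell markers Cd14 rose (1.06, limma adjusted p = 0.0119, and 0.0652 at most when control replicate 1 or 2 was omitted), and the summed signal was 1574 to 1836 on the controls and 1152 to 1697 on the transgenic arrays. In the same list Tyrobp differed by -0.69 and Fcer1g by -0.99, each lower on every transgenic array but not past the threshold (limma adjusted p = 0.0556 and 0.0986). In the fit without transgenic replicate 1, 2 of the 14 rose and 3 fell, namely Lyz2 (-1.65), Tyrobp and Fcer1g. Of 8 endothelial markers, cells known to express Lrg1 and Il33, Lyve1 rose (1.60, limma adjusted p = 0.00692), and the sums were 466.3 to 498.1 and 593.4 to 802.4. With Lyve1 taken out because it passed, the 7 other endothelial markers differed by -0.16 to -0.01. Their sums were 347.6 to 359.0 on the controls and 308.95 to 360.2 on the transgenic arrays. Of 11 fibroblast and muscle markers 0 passed, with sums of 842.6 to 968.2 and 764.8 to 870.1 and 1 lower at an unadjusted limma p under 0.05. Of 10 hepatocyte and pancreas markers 0 passed in limma at an adjusted or unadjusted p under 0.05, with sums of 474.9 to 489.0 and 487.2 to 551.1. Of 10 general epithelial markers Cdh1 rose (0.34, limma adjusted p = 0.0415, and called in 1 of the 6 fits with an array omitted, that omitting transgenic replicate 1), and the mean level of the list, 11.50 to 11.51 on the controls and 11.29 to 11.53 on the transgenic arrays, was close between the groups, so the labelled cell type was present on each array. Cdx2, a transcription factor of the gut epithelium, differed by -0.43 with no overlap (limma adjusted p = 0.0762), and without transgenic replicate 1 Cdx2 (-0.32) and Vil1 (-0.26) fell. Of 10 enterocyte and 11 lymphocyte markers 0 passed with all arrays, with 2 and 3 lower at an unadjusted limma p under 0.05, while 3 and 6 fell without transgenic replicate 1. Their sums were 54845 to 58518 and 4063 to 5177 on the controls, 13689 and 537.8 on transgenic replicate 1, and up to 50651 and 3034 on the other transgenic arrays.

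**Figure D4:**
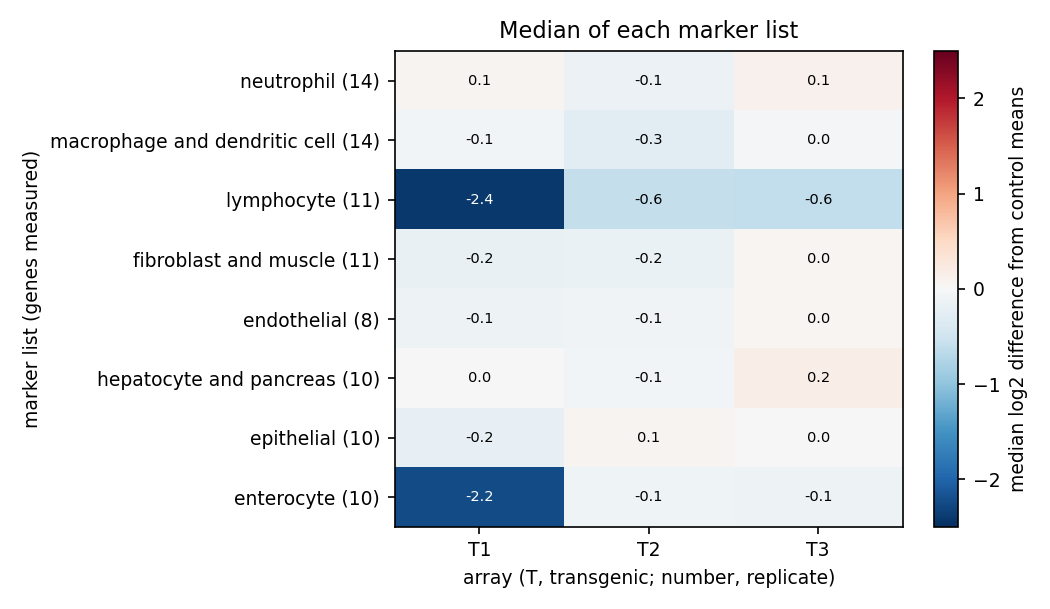
Heat map of the median difference from the control means (log2) of each marker list on the 3 transgenic arrays (T, transgenic), with the number of genes measured in brackets. The enterocyte and lymphocyte lists lie more than 2 units lower on replicate 1, and the neutrophil list lies near 0 on all 3 arrays.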

How the data were processed

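RNA of 6 jejunal epithelial preparations, 3 control and 3 transgenic by the sample titles, was hybridised to Affymetrix gene arrays, with 250 ng of total RNA used for each, per the labels' protocols. The values the authors deposited are log2 signals. RMA and Partek 6.5 are named in the submitters' processing notes, without settings. RMA equalises the arrays' distributions and compresses low signals. Of 35399 rows, 21789 had 1 gene symbol in the platform annotation, and the row with the highest mean was kept per gene, with no filter on dim genes.

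Differences were fitted over 19938 genes with limma 3.58.1 in R 4.3.3 (two-sided, Benjamini-Hochberg adjusted, threshold 0.05), and the fit was tested on simulated data. The smallest exact two-sided permutation p for 3 against 3 arrays is 0.1. Promoter windows were aligned with Biopython 1.88. The members and gene lists were chosen with earlier results of these data known. Genes were named by a rule: members, the 5 genes per list with the smallest p that passed, and fixed receptors and factors. Alternatives were other normalizations, a dim-gene filter, replicate blocks, other variance models, array weights, averaged rows, a threshold of 0.1 and each array left out.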

Additional observations from a re-analysis of the deposited data

How the results depend on the processing

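The differences of the 7 measured genes kept their direction under every alternative, except Hp, which is near 0 and ran from -0.08 to 0.04, and the count of them called stayed between 3 and 6. Saa1 and Hp were not among the genes kept by the dim-gene filter. Lcn2 ran from 5.49 to 6.06, Lrg1 from 3.72 to 4.55, Saa3 from 3.15 to 3.63, Il33 from 1.11 to 1.46, Saa1 from 2.72 to 5.11 and Saa2 from 3.12 to 5.18. Counts of called genes depended more on the alternatives, main values first. With each array left out in turn, all genes went from 2368 to between 683 and 5700, signalling genes from 11 to between 6 and 18, other acute phase genes from 4 to between 1 and 8, partners and receptors from 2 to between 1 and 9, defence genes from 4 to between 3 and 9, complement genes from 3 to between 1 and 6, cytokines and receptors from 2 to between 1 and 5, and the interleukin 1 family and the negative acute phase genes from 1 and 0 to between 0 and 3. The highest count of each came without transgenic replicate 1. Array weights gave 5770 for all genes, 8 for other acute phase genes, 9 for partners, 9 for defence, 5 for complement, 4 for cytokines, 3 for the interleukin 1 family and 2 for the negative acute phase genes. Quantile normalization and equal array medians each gave 1 for cytokines, and a threshold of 0.1 gave 7 for other acute phase genes and 4 for partners. The cause of these shifts was not tested. Same-numbered arrays did not deviate together from their group means (r of -0.07, -0.17 and -0.12 across genes for title numbers 1, 2 and 3, the last 2 also sharing the number in their descriptions). With 3 arrays per group the deviations within a group depend on each other, so these correlations cannot settle whether arrays were paired. The numbers were not taken as pairs because the protocols name none. The replicate block on title numbers gave 733 for all genes, 5 for signalling, 2 for other acute phase genes, 1 for complement, 1 for cytokines and 0 for the interleukin 1 family. The replicate block on description numbers gave 4019, 7 for other acute phase genes, 6 for partners, 10 for defence, 6 for complement, 3 for the interleukin 1 family and 1 for the negative acute phase genes. The description numbers of control replicate 1 and transgenic replicate 1 were shared with no other array. That block therefore left the differences to replicates 2 and 3 of each group, and it is another fit in which transgenic replicate 1 has no part in the difference. The precision is limited by the 3 arrays per group, and low signals, such as those of Saa1 on the controls, may be compressed.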
